A study of Mus musculus with 6 samples.

Results

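Translation initiation and elongation factors are the proteins that bring the ribosome, the initiator tRNA and the mRNA together and then move the ribosome along its message. Their genes were taken from the array annotation by symbol, as every probe set that names a single gene beginning with Eif or Eef, leaving out the eIF2 kinases (Eif2ak) and the 4E-binding proteins (Eif4ebp). This gave 69 probe sets of 59 genes, of 20805 genes named alone by a probe set on the array. A further 7 probe sets that begin this way also name another gene and were left out. The cells were mammary epithelial cells released by collagenase on day 13.5 of pregnancy from female mice bred with CD1 males. All mice carried a floxed insulin receptor gene (IRfl/fl). The 3 Cre- mice (numbers 1, 2 and 4) lacked Cre recombinase and served as controls, and the 3 Cre+ mice (numbers 5, 6 and 7) expressed Cre from the promoter of BLG, beta-lactoglobulin, a milk protein gene. RNA of each mouse was hybridised to 1 Affymetrix mouse gene array, and values below are normalized intensities on a linear scale, given in the order 1, 2, 4 and 5, 6, 7. A log2 change is the mean of Cre+ minus the mean of Cre-, with the standard error (SE) of the fit. The labels name no ages, litters or hybridisation batches.

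Initiation in mammals starts with eIF2, which carries the initiator tRNA to the small ribosomal subunit, where eIF1, eIF1A, eIF3 and eIF5 are also bound. The cap-binding complex eIF4F, made of eIF4E, the scaffold eIF4G and the helicase eIF4A, brings the mRNA. In elongation eEF1A delivers aminoacyl-tRNA, the eEF1B subunits recharge it with GTP, and eEF2 moves the ribosome by a codon. Insulin acts on this machinery mainly through mTORC1, which phosphorylates the 4E-binding proteins and, through S6 kinase, eIF4B and the eEF2 kinase. These are changes in protein activity that a transcript array does not measure. In the mammary gland these factors serve a tissue that turns to bulk secretion of milk proteins at the end of pregnancy.

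Insr, the targeted gene, read 106, 104 and 122 in Cre- cells and 55.2, 47.7 and 71.2 in Cre+ cells at its brighter probe set (log2 change -0.95, SE 0.15, adjusted p = 0.0231), and a second probe set gave -0.52 (SE 0.09, adjusted p = 0.0285). Whether these probes lie in the deleted part of the gene was not tested. Array medians lay between 28.4 and 29.3. Of 11 markers of luminal alveolar cells 9 fell, and their summed intensity was 21183 to 24132 in Cre- and 13714 to 16090 in Cre+ cells. Of 10 basal myoepithelial markers 4 rose (summed 2730 to 4067 and 4995 to 5291), and of 9 fibroblast markers 2 rose (516 to 1197 and 1119 to 1487). Of 8 macrophage markers 2 rose and 1 fell (510 to 720 and 711 to 808). No member of the other lists passed. Their sums were 3512 to 5857 and 3160 to 4079 for general luminal epithelium, 515 to 2187 and 391 to 1384 for T and B cells, 270 to 509 and 357 to 558 for endothelium, and 127 to 133 and 131 to 235 for adipocytes. The part of the cell mixture in the differences below was not tested, and in bulk RNA fewer cells of a type cannot be told apart from less RNA per cell. Cre- 1 and Cre+ 7 stood apart from the other arrays on the second principal component (scores 21.7 and 15.7, against -17.3 to -1.96). Their T and B cell markers averaged 7.14 and 6.55 on the log2 scale, against 4.95 to 5.57 on the other arrays.

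No factor gene passed the test between genotypes. Of 58 tested genes 0 rose and 0 fell in limma at an adjusted p under 0.05, where 4.17% of all 16921 tested probe sets were called. The smallest adjusted p among them, 0.0676, belonged to Eif2s3x, the gamma subunit of eIF2. At an unadjusted p under 0.05 there were 15 members, 6 higher and 9 lower in Cre+ cells, or 25.9%, beside 20.0% of all tested probe sets. The groups did not overlap at 20 members, 34.5%, beside 25.7% of all. In the authors' deposited table a p under 0.05 was listed for 10 members, 17.2%, beside 16.9% of all tested probe sets. After adjustment of those deposited p-values 0 remained. The share of members was 0 for adjusted calls and lay near or somewhat above the background by the other counts, and the excess was not tested.

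The intervals show how large a difference the arrays could have missed. All 58 intervals at 95% lay within 1 of 0 on the log2 scale, that is within 2-fold in either direction, as did 97.0% of all tested probe sets, and 50 lay within 0.5, or 86.2%, beside 80.9% of all tested probe sets. The 8 wider ones belonged to Eef2k, Eif1, Eif2a, Eif2s2, Eif2s3x, Eif4enif1, Eif4h and Eif4a3. At its own SE each member would have needed a change between 0.22 and 0.73 to be called, with a median of 0.41. The median size of change observed was 0.11 on the log2 scale, beside 0.08 over all tested probe sets. Of the members, 26 had a change above 0 (51.6% of all tested probe sets did) and 32 below 0, and their median change was -0.02 (0.00 over all tested probe sets). A size of 0.3 or more in either direction was reached by 5, namely Eef2k, Eif1, Eif4enif1, Eif2a and Eif2s3x, or 8.62%, beside 12.7% of all.

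**Figure D1:**
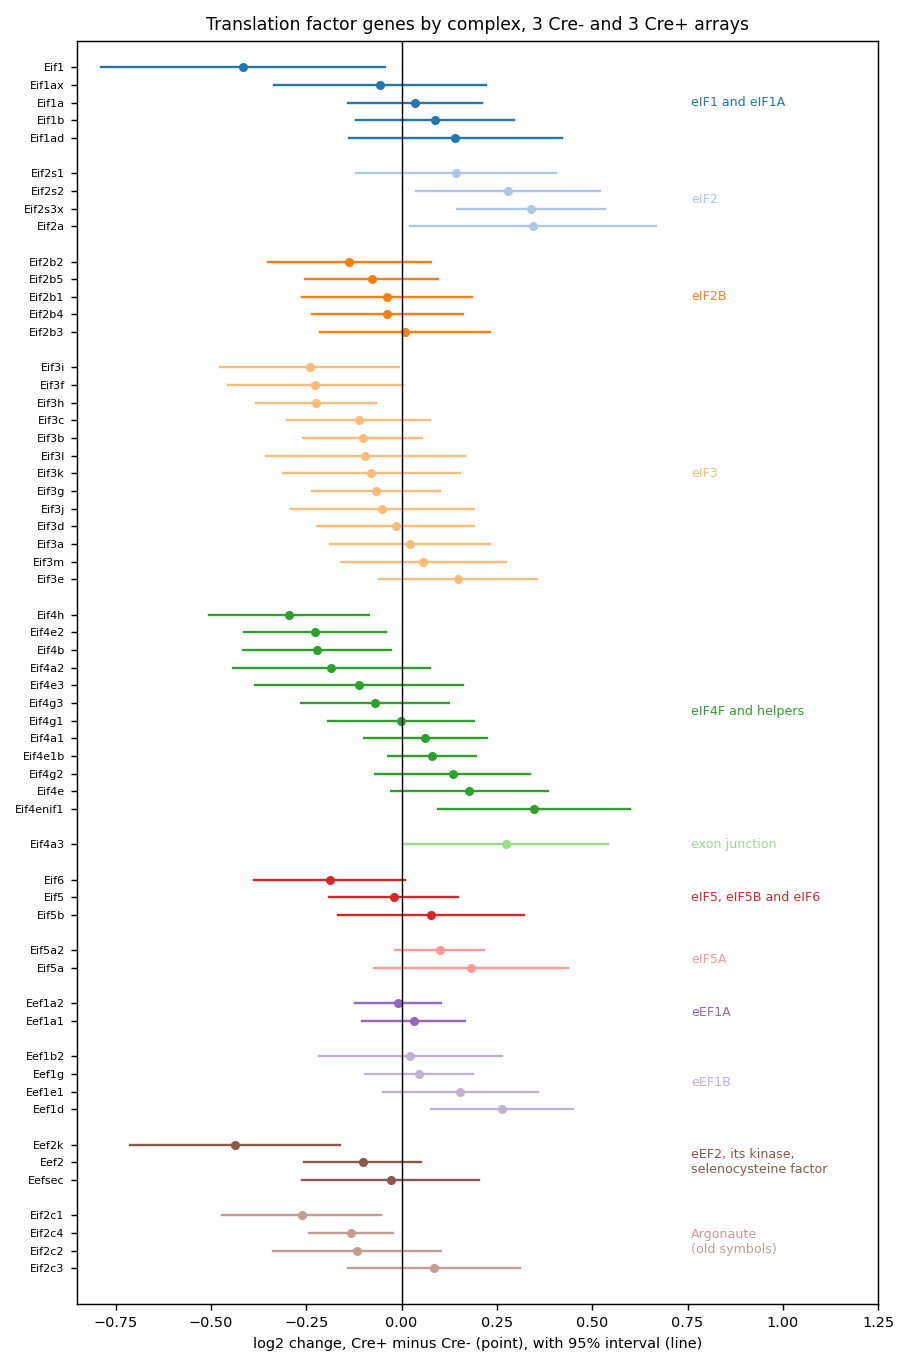
Each row is a factor gene, grouped by complex, with its log2 change in Cre+ minus Cre- cells as a point and its 95% interval as a line (3 arrays a group). All 58 intervals stay between -0.79 and 0.67, and the 3 eIF2 subunits and Eif2a all lie to the right of 0, while 10 of 13 eIF3 genes lie to the left.

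**Figure D2:**
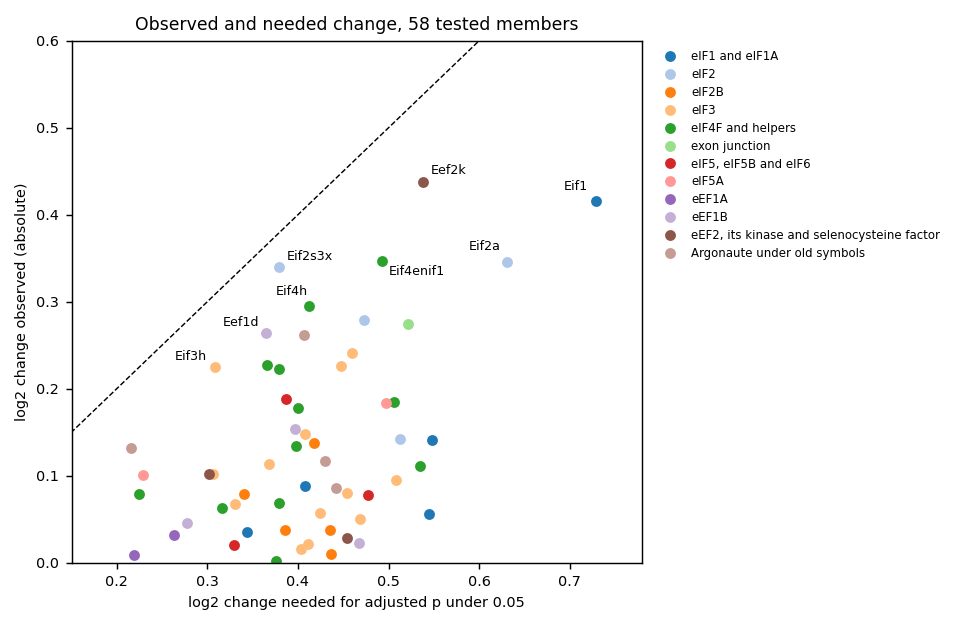
The horizontal axis gives the log2 change each of 58 members would have needed for an adjusted p under 0.05 at its own SE, and the vertical axis the size of the change observed, coloured by complex. All points lie below the dashed line of equality, and Eif2s3x, at 0.34 against 0.38, comes nearest to it.

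The 3 subunits of eIF2 had a median change of 0.28, and all were above 0. With Eif2a, which is grouped with them here as another carrier of initiator tRNA, the median was 0.31 over 4 genes. Eif2s3x, which encodes the GTP-binding gamma subunit from the X chromosome, read 493, 521 and 568 in Cre- cells and 662, 628 and 711 in Cre+ cells. Every Cre+ value lay above every Cre- value. The log2 change was 0.34 (SE 0.08), 1.27-fold, with an adjusted p of 0.0676. Eif2s2, the beta subunit, read 178, 181 and 189.7 in Cre- and 229.7, 192 and 247 in Cre+ cells (0.28, SE 0.10, adjusted p = 0.186). Here too the groups did not overlap, but Cre+ 6 lay close to the controls. Eif2s1, the alpha subunit whose phosphorylation shuts down general initiation, had a change of 0.14 (SE 0.11). Its groups overlapped, and Cre+ 6 lay below every control. Eif2a encodes a separate protein that is no subunit of eIF2 and can also bring initiator tRNA. It read 211, 248 and 259 in Cre- and 273, 275 and 370.4 in Cre+ cells (0.35, SE 0.14, adjusted p = 0.217). Without Cre+ 7 the change was 0.20, and without Cre+ 7 and Cre- 1 it was 0.11. Without these arrays together the median of the 4 genes was 0.15.

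Eif2s3y, the copy of the gamma subunit gene on the Y chromosome, read between 19.8 and 20.0 on all arrays, close to the lowest intensity on any array (18.7). It was the only member below the intensity filter. The 5 subunits of eIF2B, which recharges eIF2 with GTP, had changes from -0.14 to 0.01, with a median of -0.04, and 0 passed. Eif2b2, the beta subunit, read 101, 98.9 and 104 in Cre- and 100.1, 83.1 and 93.8 in Cre+ cells, with overlapping groups (-0.14, SE 0.09, adjusted p = 0.474), and -0.06 without Cre+ 6. For Eif2b5, the catalytic epsilon subunit, the change was -0.08 (SE 0.07). The groups overlapped at all 5 subunits.

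**Figure D3:**
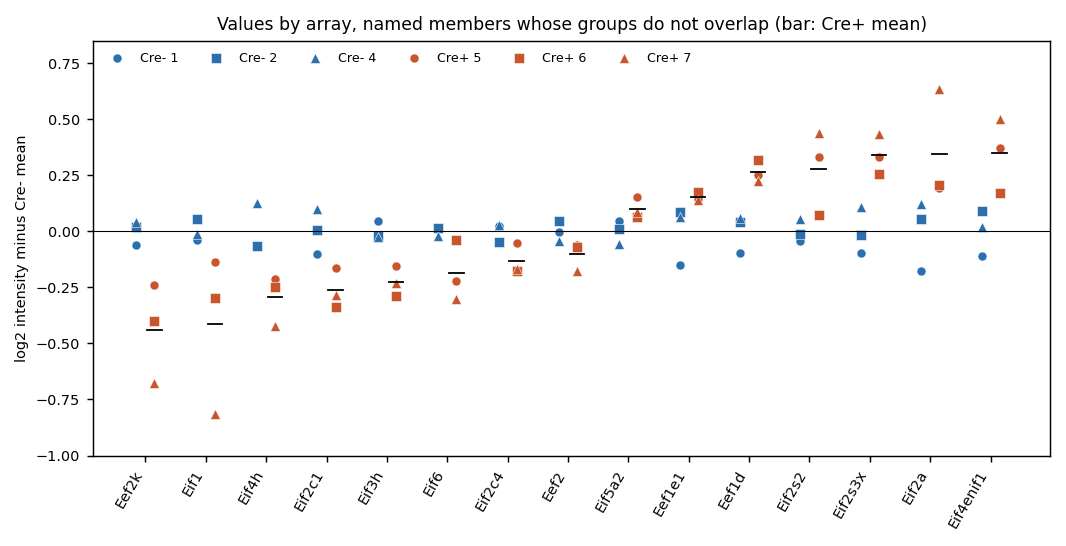
Points give the log2 intensity on each array minus the Cre- mean (blue Cre-, orange Cre+, marker shapes for the mice). The bar gives the Cre+ mean. Shown are 15 of the 20 members whose groups do not overlap, those chosen for values on each array. Eif3b, Eif3c, Eif4b, Eif4e and Eif4e2 are left out. The Cre+ array farthest from the controls is Cre+ 7 for 9 of the 15, namely Eef2k, Eif1, Eif4h, Eif6, Eef2, Eif2s2, Eif2s3x, Eif2a and Eif4enif1. It is Cre+ 6 for 5 and Cre+ 5 for 1. No such count was made over all tested probe sets.

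Among the genes of start codon selection, Eif1, which keeps the scanning ribosome from starting at a wrong codon, read 666, 711 and 679 in Cre- cells and 623, 558 and 389.6 in Cre+ cells. The controls lay close together while the Cre+ values spread widely, and the groups did not overlap. The log2 change was -0.42 (SE 0.16, adjusted p = 0.200), and -0.22 without Cre+ 7. The other 4 genes had changes from -0.06 for Eif1ax, an X-linked gene of eIF1A, to 0.14 for Eif1ad, a gene named for its eIF1A-like domain. Eif1ad read 119, 129 and 111 in Cre- and 155, 126 and 117 in Cre+ cells, with overlapping groups, and its change was 0.02 without Cre+ 5.

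The eIF3 complex, the scaffold that coats the small subunit, was measured at 13 subunits. Of these 10 had a change below 0 and 3 above, the median was -0.08 (-0.04 without Cre- 2), and 0 passed. Eif3m, counted above 0, gave 0.06 at its brighter probe set and -0.11 at the other. Eif3h, a subunit that is not needed for the core of the complex, read 1076, 1029 and 1027 in Cre- cells and 939, 854 and 889 in Cre+ cells. The groups did not overlap and both were tight (-0.23, SE 0.07, adjusted p = 0.115). Its second, dimmer probe set gave -0.07. Eif3i read 235, 272 and 259 in Cre- and 222, 235 and 192 in Cre+ cells, with a change of -0.24 (SE 0.10, adjusted p = 0.237) and overlapping groups. Eif3f had a change of -0.23 (SE 0.10). The largest positive value of the complex was 0.15 (SE 0.09) at Eif3e, a subunit first known as an integration site of the mouse mammary tumour virus. Eif3a and Eif3b, the subunits around which the complex assembles, gave 0.02 and -0.10. Eif3j was represented by a pair of probe sets at -0.05 and -0.03, and RefSeq now lists the genes Eif3j1 and Eif3j2, which this symbol does not tell apart.

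Of the late initiation factors, Eif6, which keeps the large ribosomal subunit from joining too early, read 328, 329 and 321 in Cre- and 279, 317 and 264 in Cre+ cells, without overlap (-0.19, SE 0.09, adjusted p = 0.276). Eif5b, the GTPase of subunit joining, gave 122, 133 and 141 against 143, 123 and 152, with overlapping groups (0.08, SE 0.11), and 0.01 without Cre+ 7. Eif5, which triggers GTP hydrolysis on eIF2, had a change of -0.02 (SE 0.07), and its interval ran from -0.19 to 0.15.

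Within the cap-binding complex and its helpers 5 of 12 genes had a change above 0 and 7 below, and 0 passed. None of the eIF4F subunits passed. Eif4g1, the main scaffold, had a change of -0.00 (interval -0.19 to 0.19), Eif4a1, the helicase, 0.06 (SE 0.07) and Eif4e, the cap-binding subunit that 4E-binding proteins sequester, 0.18 (SE 0.09, adjusted p = 0.319), without overlap between the groups. Eif4a2, a second form of the helicase, had a change of -0.18 (SE 0.11, adjusted p = 0.420), and its groups overlapped. Eif4a1 had 3 probe sets, all between 0.06 and 0.13. Eif4e also had 3, at 0.18 for the brightest and at -0.01 and 0.14 for the others. These others read between 27.3 and 37.5, and their groups overlapped. No probe positions were at hand, so whether a probe set lies in the gene or in a near-identical copy was not tested. The helpers of the helicase were lower in Cre+ cells without passing. Eif4h, which stimulates eIF4A, read 460.4, 461 and 526 in Cre- and 416, 406 and 359 in Cre+ cells, with no overlap (-0.29, SE 0.09, adjusted p = 0.120). Eif4b, a substrate of S6 kinase with the same role, had a change of -0.22 (SE 0.08), and Eif4e2, a cap-binding relative that represses translation, -0.23 (SE 0.08). Eif4enif1 encodes 4E-T, which carries eIF4E into the nucleus and holds it in repressed mRNA complexes. It read 75.0, 86.3 and 82.2 in Cre- and 105, 91.1 and 115 in Cre+ cells, without overlap (0.35, SE 0.11, adjusted p = 0.124). Eif4a3, a relative of the helicase that marks exon junctions rather than driving initiation, read 92.9, 118 and 102 against 122, 139 and 116, with overlapping groups (0.27, SE 0.11, adjusted p = 0.237).

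The genes of the delivery factor of elongation lay near 0. Eef1a1, the brightest member, read 6809, 6684 and 6863 in Cre- and 6842, 6890.0 and 7076 in Cre+ cells (0.03, SE 0.06, interval -0.10 to 0.17). Eef1a2, the muscle and neuron form, stayed between 29.1 and 31.1 on all arrays (-0.01, SE 0.05). The eEF1B group had 4 of 4 changes above 0, with a median of 0.10, and 0 passed. It counts Eef1e1, which is named with the subunits but is not one of them. Eef1d, the delta subunit, read 102, 112 and 113 in Cre- and 129, 136 and 127 in Cre+ cells, without overlap (0.26, SE 0.08, adjusted p = 0.118). Eef1e1, which sits in the aminoacyl-tRNA synthetase complex, read 122, 144 and 142 against 149.8, 153 and 149.5, again without overlap (0.15, SE 0.09, adjusted p = 0.389). Without Cre- 1, its lowest control, the change was 0.08. The other members, Eef1g at 0.05 and Eef1b2 at 0.02, were close to 0. Eef1g read only 27.8 to 31.8, near the array medians, so its sign adds little to the 4 of 4.

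Eef2k, the kinase that inhibits eEF2 and is itself held back by S6 kinase, had the largest change of any member. At its brighter probe set it read 103, 109 and 110.3 in Cre- cells and 91.0, 81.4 and 67.2 in Cre+ cells. All Cre+ values were below all controls (-0.44, SE 0.12, 1.35-fold, adjusted p = 0.0864). A second probe set read 47.9, 49.2 and 58.1 against 41.5, 39.3 and 41.5, also without overlap, and gave -0.34 (SE 0.10, adjusted p = 0.0962). Without Cre+ 7 the change at the brighter probe set was -0.32. Eef2, the target of this kinase, read 2373, 2451 and 2305 in Cre- and 2280.3, 2262 and 2102 in Cre+ cells, also without overlap (-0.10, SE 0.07, adjusted p = 0.458). Eefsec, which delivers selenocysteine, had a change of -0.03. Eif5a and Eif5a2 encode the factor that carries the modified lysine hypusine and helps the ribosome through stalling sequences. They had changes of 0.18 (SE 0.11) and 0.10 (SE 0.05). Eif5a read 219, 259 and 233 against 275, 298 and 235 with overlap, and Eif5a2 29.8, 29.0 and 27.7 against 32.0, 30.1 and 30.6 without. Without Cre+ 6 the change of Eif5a was 0.11.

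**Figure D4:**
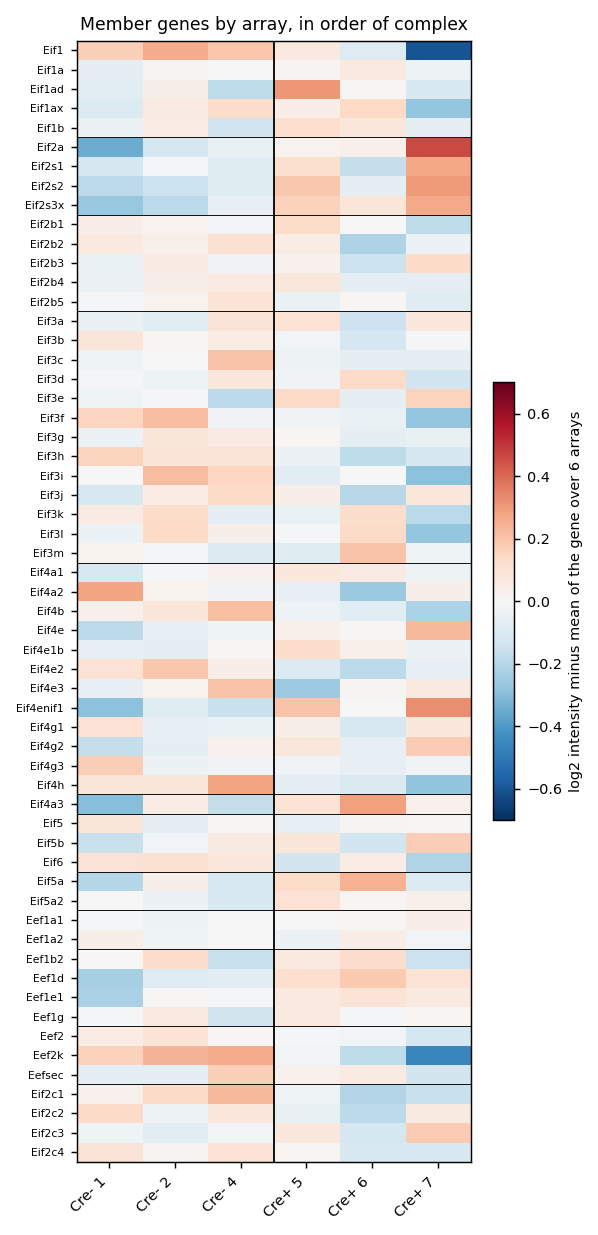
Each cell is the log2 intensity of a member gene (row, in order of complex) on an array (column) minus the mean of that gene over the 6 arrays. The 3 strongest cells are on Cre+ 7, at Eif1 (-0.61), Eif2a (0.46) and Eef2k (-0.46). Strong cells also occur elsewhere, such as Eif2a on Cre- 1 (-0.35) and Eif1ad on Cre+ 5 (0.31).

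The symbol rule also took in Eif2c1 to Eif2c4, the array's old names for the Argonaute genes Ago1 to Ago4, whose proteins carry microRNAs and are no translation factors. Of these 4 genes 3 had a change below 0 and 0 passed. Eif2c1 read 109, 117 and 125 in Cre- and 105, 92.8 and 96.1 in Cre+ cells (-0.26, SE 0.09, adjusted p = 0.154), and Eif2c4 28.7, 27.3 and 28.8 against 27.2, 25.0 and 25.1 (-0.13, SE 0.05). Neither pair of groups overlapped. For Eif2c2 the probe sets disagreed in sign, at -0.12 and 0.26. Without the Argonautes 54 factor genes remained, with a median change of -0.01 and 0 calls. Probe sets of the same gene differed in sign at 3 of the 8 genes that have several, namely Eif2c2, Eif3m and Eif4e.

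Many elongation factor mRNAs, and a few of initiation, begin with a 5′ terminal oligopyrimidine (TOP) tract, a run of pyrimidines after a leading C through which mTORC1 controls their translation. The list used here, which may not be complete, holds 9 members known for it, Eef1a1, Eef1b2, Eef1d, Eef1g, Eef2, Eif3e, Eif3f, Eif3h and Eif4b. They had a median change of 0.02, with 5 above and 4 below 0, beside -0.02 in the 49 other tested members, and 0 passed. Eef1g, counted above 0, lay near the array medians. To see which members carry such letters at their annotated start, RefSeq promoters (GRCm38.p6, 250 bases before to 50 after each start) were searched on the sense strand for a C at the start followed by at least 4 bases that are C or T. Promoters were found for 47 members. A tract stood at 2 of them, Eif2s3x and Eif3f, and 3.01% of all 27025 genes with a promoter had one. Eif2s3x is not on the list of 9 and was counted among the 49 others. The 2 sequences are shown because they carry the same kind of tract, with an equal length of 11 bases. They run from 15 bases before the start to 30 from it, with the tract in capitals.
Eif2s3x, chrX:94212622-94212666, minus strand: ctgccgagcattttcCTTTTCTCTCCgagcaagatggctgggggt
Eif3f, chr7:108934400-108934444, plus strand: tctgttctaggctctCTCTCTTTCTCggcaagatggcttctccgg
The changes of these genes were 0.34 at Eif2s3x and -0.23 at Eif3f, of which neither passed, and the groups overlapped at Eif3f. An annotated start can lie some bases from the true one, so the lack of a match at Eef1a1, Eef1b2, Eef2 and Eif4b says only that these letters are not at that position. The other 4 TOP genes, Eef1d, Eef1g, Eif3e and Eif3h, were not searched, since no promoter was matched to them.

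The promoters were also searched for CACGTG, the E-box bound by Myc and its relatives, which reads the same on both strands. It occurred in 12 of 47 members, 25.5%, beside 8.09% of all genes with a promoter. Those are all 27025 genes in RefSeq with a promoter, not only those tested on the array. The 47 members had 62 promoter sequences and the 27025 genes 32851, and the difference in share was not tested. The 12 were Eef2, Eef2k, Eif1b, Eif3a, Eif3f, Eif3k, Eif4a1, Eif4e, Eif4g1, Eif4h, Eif5a and Eif5a2. The 4 genes of the cap-binding complex and its helpers among them and Eef2k are shown with 12 bases on each side of the motif, in capitals, since they hold the 3 subunits of eIF4F and the member with the largest change.
Eif4e, chr3:138527028-138527057, plus strand: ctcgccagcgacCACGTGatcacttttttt
Eif4a1, chr11:69672595-69672624, minus strand: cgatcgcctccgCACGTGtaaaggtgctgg
Eif4g1, chr16:20672661-20672690, plus strand: ggcagtgggtgtCACGTGatggggcggagc
Eif4h, chr5:134639488-134639517, minus strand: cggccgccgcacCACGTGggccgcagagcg
Eef2k, chr7:120842788-120842817, plus strand: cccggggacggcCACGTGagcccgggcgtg
Changes of the members with the motif had a median of 0.01, with 6 of 12 above 0, and those of the 34 tested members without it had a median of -0.03, with 13 above 0. A match describes the letters and not binding.

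The median standard deviation of a member within its group was 0.12 in Cre+ and 0.09 in Cre- cells on the log2 scale, while over all tested probe sets it was 0.08 in each group. This difference in spread was not tested. The largest within-group spreads were those of Eif1 (SD 0.35), Eif2a (0.25), Eef2k (0.22) and Eif2s1 (0.22), all in Cre+ cells. Deviations of the 58 members from their own means had an SD of 0.19 on Cre+ 7, and between 0.09 and 0.13 on the other 5 arrays. Of the members, 12 had their highest value on Cre+ 7 (20.7%, beside 16.1% of all tested probe sets) and 15 their lowest (25.9%, beside 21.2%). On Cre+ 6 the highest were 9 (15.5%, beside 19.4%) and the lowest 18 (31.0%, beside 15.4%). On Cre- 1 the highest were 7 (12.1%, beside 14.8%) and the lowest 13 (22.4%, beside 20.4%). Fewer members were lowest on Cre+ 5, at 2 (3.4%, beside 13.3%), with 9 highest (15.5%, beside 15.9%). Cre- 2 had 3 lowest (5.2%, beside 13.0%) and 10 highest (17.2%, beside 13.6%). Cre- 4 had 7 lowest (12.1%, beside 16.7%) and 11 highest (19.0%, beside 20.2%). The median deviation of the members lay between -0.03 on Cre+ 7 and 0.03 on Cre+ 5.

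The partners of the factors were read from the same fit. Of 37 partner genes in 4 lists 34 were tested, and 1 rose and 1 fell. Over all tested probe sets 2.03% rose and 2.14% fell, and a difference from these shares was not tested. Abce1, the ATPase that splits ribosomes after termination so that they can start again, read 434, 442 and 439 in Cre- cells and 570.2, 532 and 612 in Cre+ cells, and rose by 0.38 (SE 0.07, adjusted p = 0.0382). Pdcd4, which binds eIF4A and blocks its helicase and is degraded after phosphorylation by S6 kinase, read 789.9, 755 and 677 against 539, 445 and 580.2. It fell by 0.51 (SE 0.11, adjusted p = 0.0498). In neither gene did the groups overlap. Both calls were lost whichever single array was left out, with adjusted p from 0.0628 to 0.140 for Abce1 and from 0.0620 to 0.162 for Pdcd4.

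Of the 4 eIF2 kinases and the phosphatase subunits Ppp1r15a and Ppp1r15b, 0 of 6 passed. The smallest p of that list was at Eif2ak3, which encodes PERK, the kinase that senses unfolded proteins in the endoplasmic reticulum. It read 108, 114.5 and 117 in Cre- and 96.4, 88.4 and 92.0 in Cre+ cells, without overlap (-0.29, SE 0.08, adjusted p = 0.0853). It passed without the intensity trend (adjusted p = 0.0424) and with array weights (0.0486). Among the 4E-binding proteins, Eif4ebp1 had a change of -0.14 (SE 0.09) and Eif4ebp2 of 0.28 (SE 0.08, adjusted p = 0.111). Eif4ebp3 is not named alone by a probe set and was not analysed here. The S6 kinases Rps6kb1 and Rps6kb2 gave 0.05 and -0.21, and the eIF4E kinases Mknk1 and Mknk2 -0.35 and -0.09, none past the test. Pabpc1, the main poly(A)-binding protein, had a change of -0.03. In the termination list the release factor genes Etf1 and Gspt1 gave 0.09 and 0.08. Of 7 tested genes for hypusine and diphthamide, the modifications of eIF5A and eEF2, 0 passed. The smallest p belonged to Dhps, the first enzyme of hypusine synthesis, at 59.3, 50.8 and 55.7 against 40.7, 49.2 and 47.3 (-0.27, SE 0.10, adjusted p = 0.194).

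**Figure D5:**
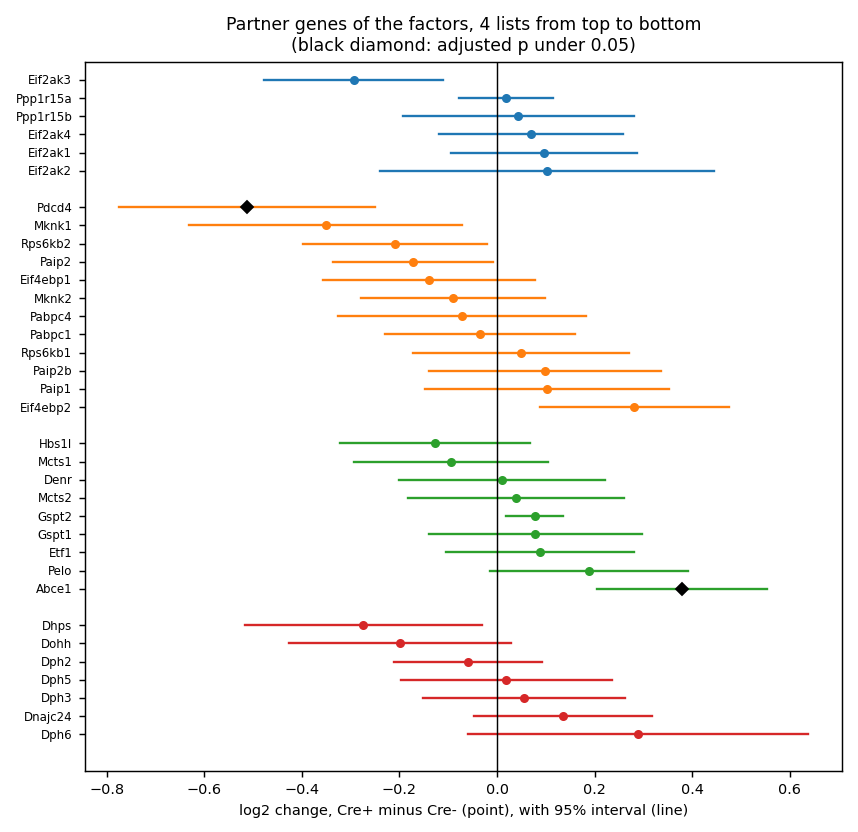
Partner genes are shown with their log2 change, Cre+ minus Cre-, and 95% interval, in 4 blocks for eIF2 kinases and phosphatase subunits, regulators of eIF4F, termination and recycling, and hypusine and diphthamide enzymes. The black diamonds mark Pdcd4 at -0.51 and Abce1 at 0.38, the 2 of 34 past the adjusted threshold.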

How the data were processed

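Per the labels, the authors made the deposited intensity of each probe set by robust multi-array averaging over core exons in the Expression Console software. The labels name no version, genome build or annotation. The deposited intensities were linear, from 18.7 to 10919, and equal in both tables (largest difference 0). Per the file headers, the deposited p-value column is a test per probe set and the deposited ratio column divides the Cre+ by the Cre- mean. The authors' group means and standard errors, deposited as other columns, were not used.

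Intensities were taken to log2 here. A probe set was tested if it named 1 gene and its mean reached the 30th percentile of the 28853 on the array (log2 4.48), which left 16921. Cre+ was compared with Cre- in limma 3.58.1 (R 4.3.3) by lmFit and by eBayes with its trend option. The p-values are two-sided and were adjusted over all tested probe sets by the Benjamini-Hochberg method, with a threshold of 0.05. Where a gene had several probe sets, the brightest on average stands for it. Members, lists and tests were chosen with earlier results of these data known. Values on each array are given for members past the threshold, for those without overlap and with a change of at least 0.3, and for the 2 with the smallest p in each complex. Of the partners, those past the threshold and the 1 with the smallest p in each list are given. The second Eef2k probe set, outside this rule, was chosen after its values were seen. Promoter sequences are from RefSeq. The fit was also run on simulated data with independent normal errors and no shift shared by an array. That run does not cover differences between whole arrays, and no result here rests on it. Each mouse gave 1 array, and this number limits the precision.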

Additional observations from a re-analysis of the deposited data

How the results depend on the processing

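The count of 0 called factor genes held under 15 of 16 alternatives, among them the leaving out of each array (0 to 0) and of Cre- 1 and Cre+ 7 together. With array weights it was 1, Eif2s3x (adjusted p = 0.0310). Called partner genes numbered 2, but 0 without the intensity filter, 1 with median centring, 1 without Cre- 1 and Cre+ 7 together, 3 with array weights (Eif2ak3 added), 0 to 0 when each array was left out, and 0 by the authors' deposited test. Without the intensity trend the 2 were Abce1 and Eif2ak3, and Pdcd4 was lost (adjusted p = 0.0603). Over all tested probe sets 706 calls became 1437 with array weights and 34 by the authors' deposited test. Leaving out Cre- 1 gave 781, Cre- 2 118, Cre- 4 265, Cre+ 5 46, Cre+ 6 52 and Cre+ 7 291. Leaving out Cre- 1 and Cre+ 7 together gave 954. The counts went up as well as down, and the causes were not tested. Gene by gene, the alternatives were followed for 24 members only. Among these the sign turned at Eef1a2 (0.0174) and Eif5b (-0.0470) without Cre- 1 and Cre+ 7 together. For Eef1a2 single omissions gave -0.0359 to 0.0104. The median of the cap-binding group and its helpers also turned without Cre- 1 and Cre+ 7, from -0.0354 to 0.0031. Signs of the remaining members were not followed. No paired analysis was possible because the labels name no litters or pairs of mice. Without those 2 arrays the eIF2 and Eif2a median was 0.1459, below that of eIF5A (0.1774), and leaving out Cre- 2 gave -0.0415 for eIF3. Intensities near the array floor limit what can be seen of Eif2s3y. Eef1a2, Eef1g, Eif4e1b, Eif5a2 and Eif2c4 lay near the array medians. Eif4e1b, one of the cap-binding group above 0, had a change of 0.08 and the lowest value of any tested member, 24.9. With 16 taken off before log2 the changes were 0.2170 at Eif5a2 and -0.3292 at Eif2c4, over 2 times those reported.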
